A study of Homo sapiens with 7 samples.

Results

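The genes examined were 10 regulators of the G1 phase of the cell cycle, taken by name from 20162 protein-coding genes of a GRCh37 (hg19) annotation. They were the D-type cyclins CCND1, CCND2 and CCND3, their partner kinases CDK4 and CDK6, the inhibitors CDKN1A (p21), CDKN1B (p27), CDKN2A (p16 and ARF) and CDKN2C (p18), and the A-type cyclin CCNA1. They are taken by name and function, and results of these data were already known when they were listed. Binding was read as peak summits lying inside a gene body or within 5 kb of it, with 50 kb as a wider view.

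The ChIP-seq libraries were made from Kasumi-1 cells, a myeloblast line from a patient's acute myeloid leukemia that carries the translocation t(8;21) and so makes the fusion protein AML1-ETO. Antibodies were directed against AML1 (Runx1), ETO (which detects AML1-ETO), the co-repressor N-CoR, the co-activator and acetyltransferase p300, and H3K4me3, a histone mark of active promoters. The AML1 antibody recognizes the C-terminus of AML1, which the fusion lacks. All libraries came from this one line, with 2 replicates per antibody pooled before peak calling, and neither the input library nor that for H3K27me3 was used here. The AML1-ETO list held 18087 summits and the AML1 list 11692. There were 10004 N-CoR summits, 11020 p300 summits and 19632 H3K4me3 summits. With 1 list per antibody there was no spread between replicates and no test between lists was made, so values are set beside the same values for all genes or for whole lists. The files hold no reads, so the depth of a list is unknown from them, and a gene without a summit had no peak at the threshold used, which does not show that the protein was absent. The labelled cell type was checked on its H3K4me3 promoters: summits lay within 1000 bp of a transcription start at 6 of 6 myeloblast genes (CD34, KIT, CD33, MPO, SPI1 and PTPRC) and at 0 of 4 T cell, erythroid and hepatocyte genes (CD3D, CD3E, HBB and ALB).

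D-type cyclins bind CDK4 or CDK6, and the complex phosphorylates the retinoblastoma protein RB, which frees E2F factors to transcribe the genes of S phase. Inhibitors of the INK4 family (CDKN2A, CDKN2C) bind the kinases CDK4 and CDK6 themselves, while inhibitors of the CIP/KIP family (CDKN1A, CDKN1B) bind cyclin-CDK complexes. CDK6 and CCND3 are prominent in blood cell precursors, and AML1 is a transcription factor required for blood formation.

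CCND3 and CDK6 held the most AML1-ETO and N-CoR summits, though they were also the longest of the genes. AML1-ETO windows of these genes are shown first, because they include the lowest peak numbers among the members and most windows with a Runx consensus. Only windows with the lowest peak number of each gene or with a Runx consensus are printed. CCND3 peaks 1213, 1719 and 2794 and CDK6 peak 3604 held no Runx consensus and are left out. Peak numbers are those in the deposited names, and a low number stands early in its list. Sequences are the plus strand of GRCh37, 5′ to 3′, in windows of 100 bp around the summit. Capitals mark TGTGGT (the Runx consensus), AGGAAG (ETS) or GAGGAA (PU.1, an ETS factor of myeloid cells) on either strand, so that the Runx letters also appear in reverse complement as ACCACA. The reverse complement of the ETS letters is CTTCCT and that of the PU.1 letters is TTCCTC. The ETS and PU.1 letters can overlap, as in GAGGAAG. The summit of AML1-ETO peak 3 lies at chr6:41904138, where 30 bases only are given because the window overlaps an annotated untranslated region, and no capitals appear because the window held none of the 3 sequences.
CCND3 peak 3, chr6:41904123-41904152: aagatacttgctcttccccagaccaaggca
CCND3 peak 95, chr6:41907293-41907392: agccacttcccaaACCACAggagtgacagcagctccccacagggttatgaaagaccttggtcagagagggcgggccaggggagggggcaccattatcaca
CCND3 peak 3831, chr6:42013543-42013642: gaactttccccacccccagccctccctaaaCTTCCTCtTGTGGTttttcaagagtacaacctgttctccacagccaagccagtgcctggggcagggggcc
CCND3 peak 9146, chr6:41985027-41985126: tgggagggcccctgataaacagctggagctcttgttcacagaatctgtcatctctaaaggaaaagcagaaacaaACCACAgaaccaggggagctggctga
CDK6 peak 1061, chr7:92384545-92384644: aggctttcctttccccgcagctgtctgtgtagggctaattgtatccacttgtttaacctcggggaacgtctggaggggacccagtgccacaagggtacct
CDK6 peak 1434, chr7:92269016-92269115: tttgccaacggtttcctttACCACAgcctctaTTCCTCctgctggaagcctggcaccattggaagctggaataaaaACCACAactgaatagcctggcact
CDK6 peak 8173, chr7:92250535-92250634: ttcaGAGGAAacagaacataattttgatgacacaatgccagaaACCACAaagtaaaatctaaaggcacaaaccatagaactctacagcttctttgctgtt
In CCND3 peak 3831 the PU.1 and ETS letters stand 1 base from the Runx letters, and CDK6 peak 1434 holds the Runx consensus at 2 positions with a PU.1 match between them. The windows with the lowest peak numbers at CCND3 and CDK6, peaks 3 and 1061, held none of the 3 sequences.

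Across the 10 genes, AML1-ETO had summits at 7 genes, 19 summits in all, where 41.4% of all protein-coding genes had at least 1. AML1 had 12 summits at 4 genes (background 34.9%), N-CoR 15 summits at 2 genes (background 26.7%), and p300 13 summits at 5 genes (background 45.5%). H3K4me3 had 25 summits at 9 genes, against a background of 68.0%. With 10 genes, each gene moves such a share by 10 percentage points, and the AML1-ETO and H3K4me3 shares were the farthest above those of all genes. The number of summits per gene stood apart more than the share: the members averaged 1.9 AML1-ETO and 1.5 N-CoR summits, where all genes averaged 0.813 and 0.442. The medians were lower, at 1 and 0 for the members and 0 and 0 for all genes, because CCND3 and CDK6 held 11 of the 19 AML1-ETO summits and all 15 N-CoR summits.

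**Figure D1:**
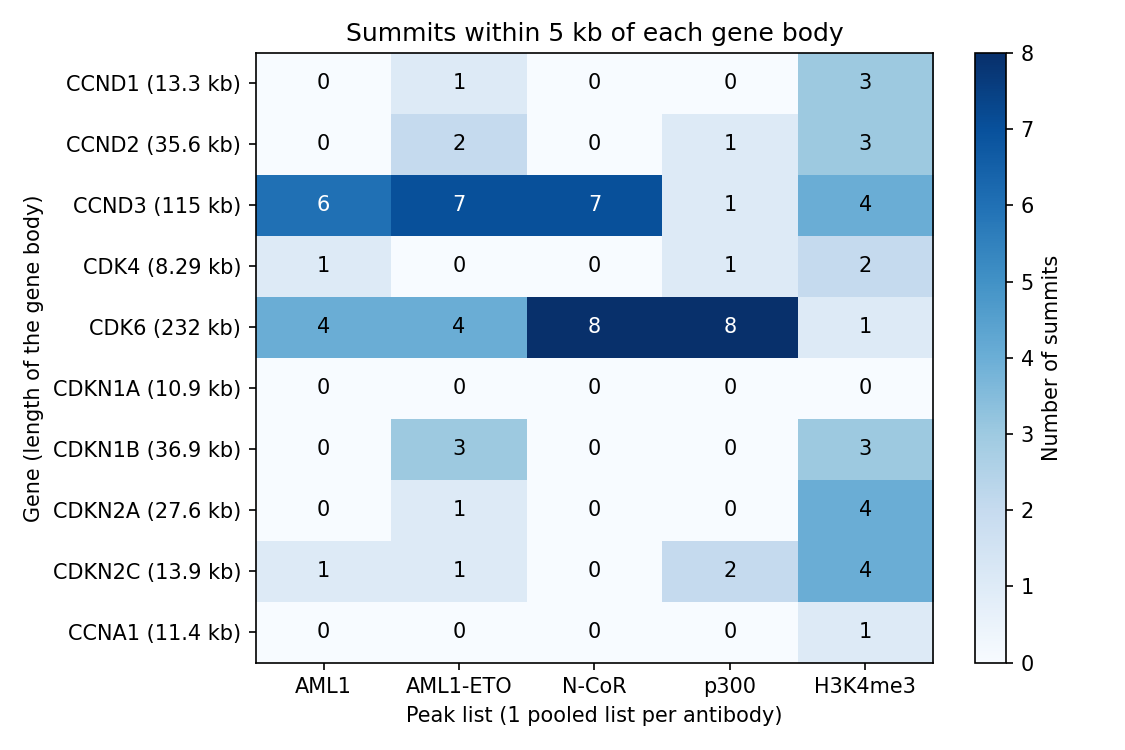
Number of summits within 5 kb of each gene body (rows, with the length of the gene) in each peak list (columns, 1 pooled list per antibody). CCND3 and CDK6 hold all 15 N-CoR summits, CDKN1A holds none of any kind, and CCNA1 holds a single H3K4me3 summit.

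**Figure D2:**
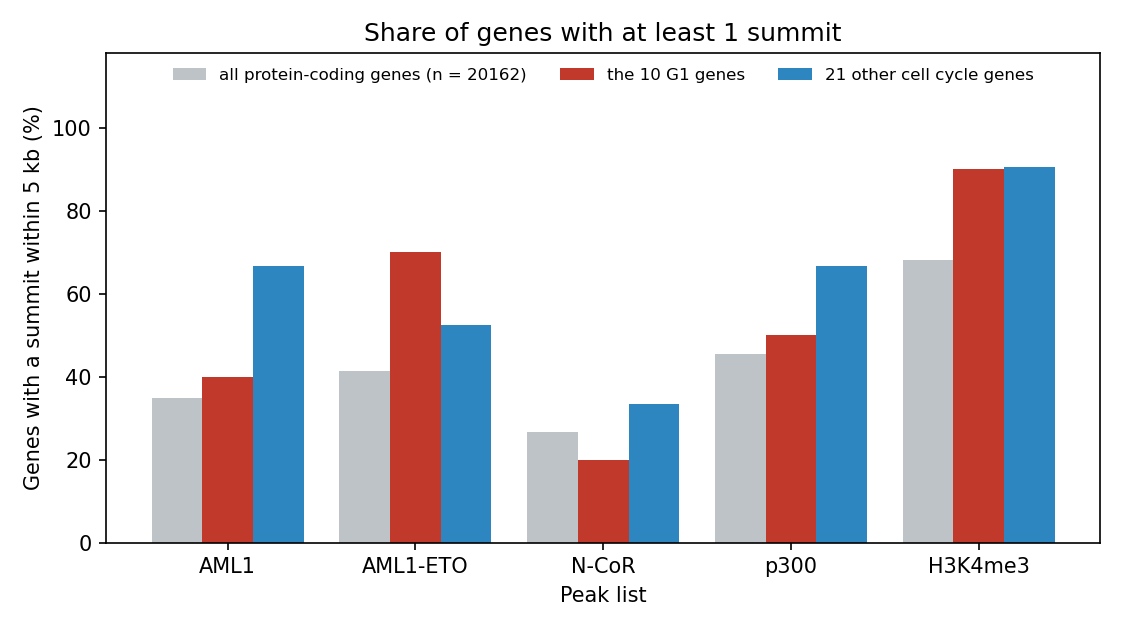
Percent of genes with at least 1 summit within 5 kb in each list, for all protein-coding genes (grey), the 10 G1 genes (red) and 21 other cell cycle genes (blue). The red bar for AML1-ETO is at 7 of 10 genes against 41.4% in grey, and the red bar for N-CoR is at 2 of 10 genes against 26.7%.

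Gene length bears on such counts, and CCND3 (115 kb) and CDK6 (232 kb) were the longest members. They were therefore set beside the 2839 protein-coding genes of 100 to 300 kb. Of those genes, 38 had at least as many N-CoR summits as CCND3 (7) and 20 as many as CDK6 (8). For AML1-ETO, 95 had at least the 7 of CCND3 and 323 at least the 4 of CDK6. For p300, 3 genes of this length had at least the 8 summits of CDK6. Per length searched, CCND3 held 5.58 AML1-ETO summits per 100 kb and CDK6 1.66, and the value over all genes was 1.04. CDKN1B had 6.4, with 1 of its 3 summits lying outside the gene at a start of APOLD1. By this measure CDK6 was the lowest of the 7 members with a summit, below CCND2 (4.39), CCND1 (4.29), CDKN2C (4.19) and CDKN2A (2.66). In short genes the 5 kb flanks make up much of the length searched, so a single summit weighs heavily there. For N-CoR the values per 100 kb were 5.58 at CCND3 and 3.31 at CDK6, against 0.564 over all genes. The other 8 members were between 5 and 50 kb long: AML1-ETO was found at 5 of 8 (38.4% of the 10480 genes of that length), AML1 at 2 of 8 (32.1%), p300 at 3 of 8 (48.3%) and N-CoR at 0 of 8 (24.3%).

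CCND3, the gene of cyclin D3, lies on the minus strand at chr6:41902672-42018095, with annotated starts in an upstream and a downstream cluster. It held 9 sites, a site being a run of overlapping windows of AML1, AML1-ETO, N-CoR or p300. AML1-ETO was present at 7 of them, AML1 at 6 and N-CoR at 7. Of the 9 sites, 5 carried AML1, AML1-ETO and N-CoR together, 1 carried AML1 and AML1-ETO, 1 AML1-ETO and N-CoR, 1 N-CoR alone and 1 p300 alone. None of the 7 AML1-ETO windows overlapped p300, which with 7 windows allows a share of up to 41.0%, and 21.8% of all AML1-ETO windows did.

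Near the downstream starts, 3 sites with all of AML1, AML1-ETO and N-CoR lay within a few kb of each other. AML1-ETO peak 3 at chr6:41904138 carried one of the lowest numbers of the 18087 in its list and lay 1866 bp downstream of the nearest start. It was paired with N-CoR peak 376, whose summit lay 40 bp away, and AML1 peak 2046, 85 bp away. This position was intronic in 9 of the 10 CCND3 transcripts over it, the canonical one included, and exonic in 1 (CCND3-218, exon 41903934 to 41904433). The second site, AML1-ETO peak 1213 at chr6:41906060, lay 56 bp upstream of a start, with N-CoR peak 2133 and, late in its list of 11692, AML1 peak 11263. The third, AML1-ETO peak 95 at chr6:41907343, was intronic, 980 bp downstream of another start, with N-CoR peak 1120 and AML1 peak 4613. H3K4me3 was found at the downstream cluster with summits at chr6:41909300, 43 bp from a start, and chr6:41909860. The 3 sites were 5162, 3240 and 1957 bp from the nearest H3K4me3 summit, so none was within 1000 bp of the mark.

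Farther up the gene, the other 4 AML1-ETO summits were intronic. AML1-ETO peak 3831 at chr6:42013593 lay 2679 bp downstream of an upstream start, with the AML1 summit 1 bp and the N-CoR summit 3 bp away. AML1-ETO peak 2794 at chr6:41996277 overlapped N-CoR peak 5952 and no AML1 window, and AML1-ETO peak 9146 at chr6:41985077 overlapped both. At chr6:41978308, AML1-ETO peak 1719 overlapped AML1 only, by AML1 peak 11380, also late in its list. N-CoR peak 2327 lay 101 bp from that summit, so the windows of 100 bp missed each other narrowly. The single p300 summit, peak 2084 at chr6:42018355, lay 260 bp upstream of the farthest CCND3 start and 13 bp from a start of TAF8, a divergent neighbour that encodes a subunit of the general factor TFIID. An H3K4me3 summit at chr6:42016281 lay 9 bp from one of the upstream CCND3 starts. Another at chr6:42018791 lay outside the gene, 696 bp upstream of CCND3 and 58 bp from a TAF8 start.

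**Figure D3:**
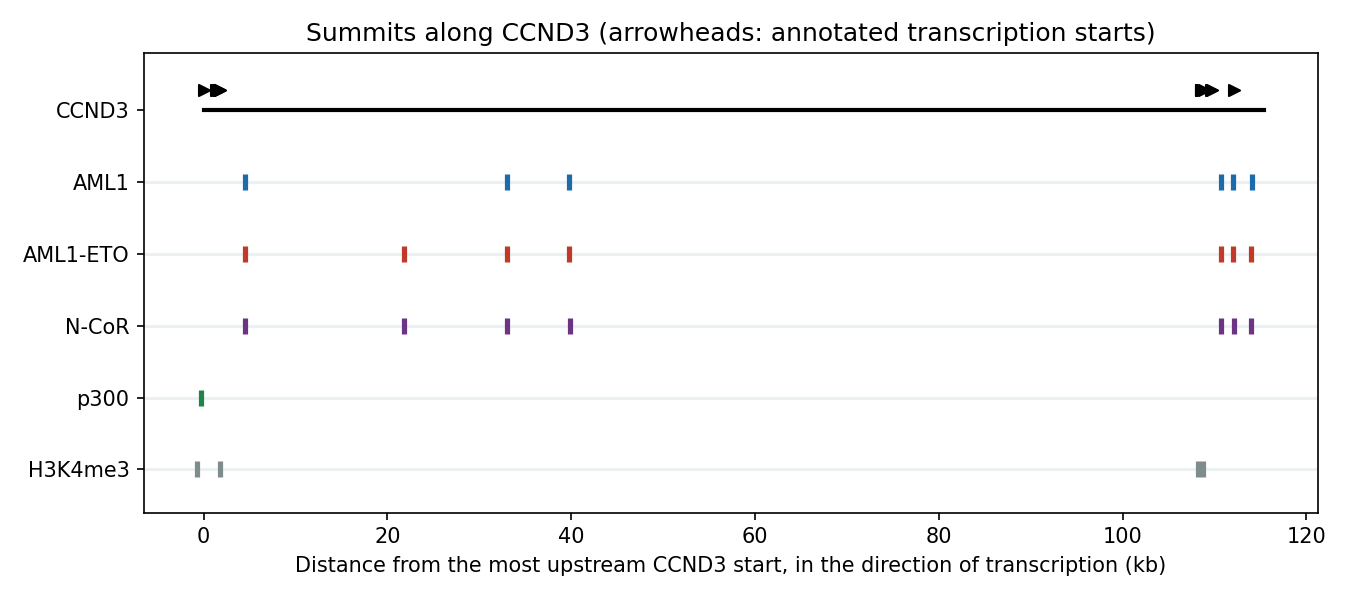
Positions of summits of each list along CCND3, in kb from its most upstream start in the direction of transcription, with arrowheads at annotated starts. AML1, AML1-ETO and N-CoR windows overlap at 5 positions and lie too close to separate by eye at 1 more, where N-CoR is 101 bp from AML1-ETO, while p300 has 1 tick, at the upstream starts with H3K4me3.

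CDK6, the kinase that pairs with D-type cyclins, lies on the minus strand at chr7:92234235-92465887. It held 10 sites, and all 4 of its AML1-ETO summits were intronic and overlapped both AML1 and N-CoR. Of the 4, 3 also overlapped p300 (exact 95% interval 19.4 to 99.4%), and this interval overlaps that of CCND3 and holds the 21.8% of the whole list. AML1-ETO peak 1061 at chr7:92384595 was joined by N-CoR peak 344, p300 peak 286 and AML1 peak 837, all within the first 10% of their lists. AML1-ETO peak 1434 at chr7:92269066 was joined by AML1 peak 293, p300 peak 334 and N-CoR peak 3411. AML1-ETO peak 3604 at chr7:92262934 was joined by N-CoR peak 758, AML1 peak 3581 and p300 peak 9512. Only AML1-ETO peak 8173 at chr7:92250585 had no p300 window. These 4 sites were 31517 to 80676 bp from the nearest H3K4me3 summit.

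Co-regulators without AML1-ETO were also found at CDK6. N-CoR and p300 shared 3 sites that no AML1-ETO window overlapped, at chr7:92274980, chr7:92408395 and chr7:92464848, the last of them 237 bp upstream of a start. N-CoR alone was found at chr7:92264443. At the promoter, p300 summits lay 6 and 40 bp from annotated starts (chr7:92463225 and chr7:92465847), and the only H3K4me3 summit of the gene, chr7:92465271, lay 616 bp from a start. No AML1 or AML1-ETO summit was found within 1000 bp of a CDK6 start. Of the 8 N-CoR summits of CDK6, 6 overlapped p300, and at CCND3 0 of 7 did. The exact 95% intervals of these shares were 34.9 to 96.8% at CDK6 and 0.0 to 41.0% at CCND3, and both held the 37.4% of the whole N-CoR list.

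**Figure D4:**
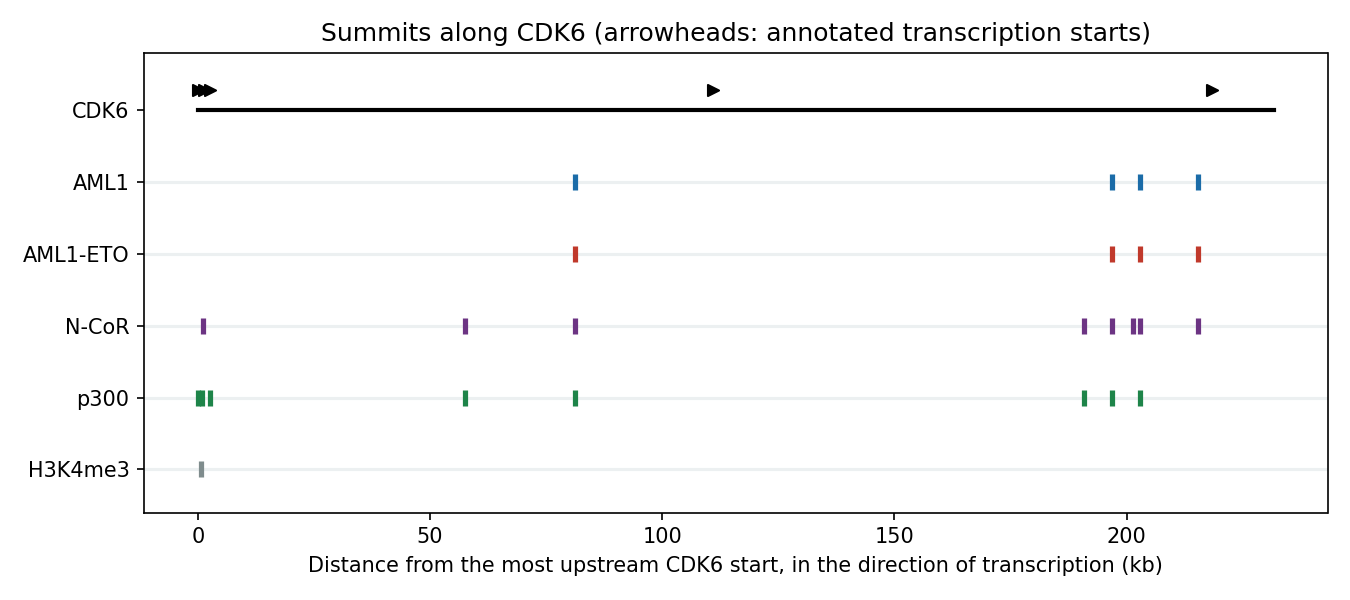
Positions of summits of each list along CDK6, in kb from its most upstream start in the direction of transcription, with arrowheads at annotated starts. The 4 AML1-ETO ticks stand in introns far from the single H3K4me3 tick, and N-CoR and p300 each have 8 ticks.

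CCND1 and CCND2, the other D-type cyclins, carried AML1-ETO without N-CoR. Of all protein-coding genes of 5 to 50 kb with AML1-ETO, 52.0% also had N-CoR. CCND1 (chr11:69455924-69469242) had 1 summit, AML1-ETO peak 9563 in an intron at chr11:69464944, 2219 bp from a start, and H3K4me3 summits 379 and 630 bp from a start. CCND2 (chr12:4378937-4414519) had AML1-ETO peaks 14862 and 17740 at chr12:4382069 and chr12:4382857, which lay 250 and 71 bp upstream of annotated starts. The second overlapped p300 peak 4737. H3K4me3 summits lay 478 and 582 bp from CCND2 starts. Both CCND2 windows held the PU.1 consensus, the second at 2 positions. A distal site stood earlier in the list: AML1-ETO peak 2608 at chr12:4352512, overlapped by AML1 peak 8357, lay 26425 bp upstream of CCND2 with a Runx consensus 4 bp from its summit.

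CDK4 (chr12:58141510-58149796), the second kinase partner of the D-type cyclins, differed from CDK6 in its list of proteins. No AML1-ETO or N-CoR summit lay within 5 kb. AML1-ETO summits at chr12:58136029 and, with N-CoR, at chr12:58134973 lay just beyond that flank, 7549 and 8605 bp from the nearest CDK4 start. With a flank of 10 kb, AML1-ETO was found at 8 of the members and N-CoR at 3. The share of all genes at a flank of 10 kb was not computed, so these counts have no background. AML1 peak 19 of 11692 lay at chr12:58146304, 74 bp upstream of a start, and p300 peak 4311 lay 245 bp away, on a start. H3K4me3 peak 1819 lay 7 bp from a start. Of the first 10% of the AML1 list, 84.1% of summits (95% interval 81.9 to 86.1) overlapped AML1-ETO, and AML1 peak 19 was among the rest.

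The inhibitors of the CIP/KIP family gave unlike pictures. At CDKN1B (chr12:12838432-12875303), AML1-ETO was found at 3 sites, with no AML1, N-CoR or p300 summit. The first, peak 11778 at chr12:12868500, lay 508 bp downstream of an annotated start and held the Runx consensus, and its window is given here as the only such window within 5 kb of a member other than CCND3 and CDK6.
CDKN1B peak 11778, chr12:12868450-12868549: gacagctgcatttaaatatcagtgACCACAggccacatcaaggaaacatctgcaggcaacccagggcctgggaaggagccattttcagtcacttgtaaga
AML1-ETO peak 10836 lay at chr12:12869814, 488 bp upstream of a start, and peak 7640 at chr12:12878804 lay outside the gene, 47 bp from a start of APOLD1. H3K4me3 summits lay 160 and 156 bp from CDKN1B starts. Of the 1822 protein-coding genes with 3 or more AML1-ETO summits, 11.8% had no N-CoR summit, as CDKN1B did. CDKN1A (chr6:36644237-36655114) had no summit in any of the 5 lists within 5 kb, as had 25.8% of all protein-coding genes. It was the only member without an H3K4me3 summit near a start, the nearest being 19353 bp away at the neighbouring gene RAB44. The wider view placed AML1-ETO, N-CoR and p300 together at chr6:36665558, 45 bp from a RAB44 start, and AML1-ETO peak 2365 with AML1 peak 759 and N-CoR peak 3114 at chr6:36695677, within RAB44 and 49129 bp from the nearest CDKN1A start.

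At the INK4 genes, AML1-ETO summits stood late in the list. CDKN2A (chr9:21967751-21995300) had AML1-ETO peak 13621 at chr9:21965269, beyond the 3′ end of the gene and 227 bp from an H3K4me3 summit. H3K4me3 was found at both of its promoter regions, with summits at chr9:21974697, chr9:21994172 and chr9:21995175, each within 1000 bp of a start. CDKN2C (chr1:51426417-51440306) had AML1-ETO peak 14959 at chr1:51425967 with AML1 peak 4351 and p300 peak 4838. This site lay 450 bp upstream of CDKN2C and 28 bp from a start of its divergent neighbour FAF1, so that the promoters cannot be told apart. A further p300 summit at chr1:51443624 lay 7707 bp downstream of a start, 93 bp from H3K4me3. CCNA1 (chr13:37005657-37017007), the A-type cyclin known from germ cells and myeloid leukemia, had a single summit, H3K4me3 66 bp from its start, and 12.7% of all genes likewise had H3K4me3 alone.

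H3K4me3 lay within 1000 bp of an annotated start at 9 of the 10 genes, where 62.3% of all protein-coding genes had such a summit. Of the 19 AML1-ETO summits of the members, 8 lay within 1000 bp of a start of any protein-coding gene, or 42.1% (20.3 to 66.5), against 28.6% of the whole list. Of the 19, 6 lay within 1000 bp of an H3K4me3 summit, against 27.4% of the whole list. For N-CoR, 1 of 15 summits was near H3K4me3 (26.9% of the whole list), and for p300 7 of 13 (71.7%). The median distance to the nearest such start was 2219 bp for the members' AML1-ETO summits (6869 bp in the whole list) and 277 bp for p300 (170.0 bp). It was 16852 bp for N-CoR (7702 bp), whose 15 summits all came from the 2 longest genes.

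Taking the 19 AML1-ETO windows of the 10 genes, 11 overlapped AML1, which is 57.9% (exact Clopper-Pearson 95% interval 33.5 to 79.7) against 46.2% of the whole list. N-CoR overlapped 10 of 19, or 52.6% (28.9 to 75.6), against 38.9%, and p300 overlapped 5 of 19, or 26.3% (9.15 to 51.2), against 21.8%. The intervals cover counting error over summits only, summits of 1 gene share their locus, and each interval held the whole-list value. Leaving out 1 gene turned each direction. Without CCND3 the AML1 share was 41.7% and the N-CoR share 33.3%, and without CDK6 the p300 share was 13.3%, each below the whole list. N-CoR overlapped 6 of 7 AML1-ETO windows at CCND3 (42.1 to 99.6%) and 4 of 4 at CDK6 (39.8 to 100.0%). At the other members it overlapped 0 of 8, which allows a share of up to 36.9%. CCND3 and CDK6 held all 15 N-CoR summits, so this split of the genes sets the groups apart in N-CoR in advance. The intervals by gene group therefore do not test a difference from the 38.9% of the whole list. The other members had no N-CoR summit, so their 0 of 8 restates that count. Overlapping windows have summits at most 99 bp apart by definition. Within that limit, the median distance from AML1-ETO was 12 bp to AML1, 10 bp to N-CoR and 29 bp to p300. These distances were not set beside those of the whole lists.

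The place of a summit in the AML1-ETO list moved with these overlaps. In the first 10% of the list, numbers 1 to 1808, 91.4% of summits overlapped N-CoR, 93.1% AML1 and 50.6% p300, and in the last 10% the shares were 15.4%, 17.7% and 12.8%. CCND3 and CDK6 had 6 of their 11 AML1-ETO summits among the first 10% of the list. The other members had none there, and their numbers ran from 7640 to 17740. From 7640 on, the lowest number of these members, 21.1% of all AML1-ETO summits overlapped N-CoR (20.3 to 21.9). The 0 of 8 at these members follows from their having no N-CoR summit, so it cannot be weighed against that share. The files do not state what the number ranks, and the part of list position in the difference between genes was not tested. At CCND3, 4 of the 7 AML1-ETO summits were in the first 10%, and none of the 7 overlapped p300.

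**Figure D5:**
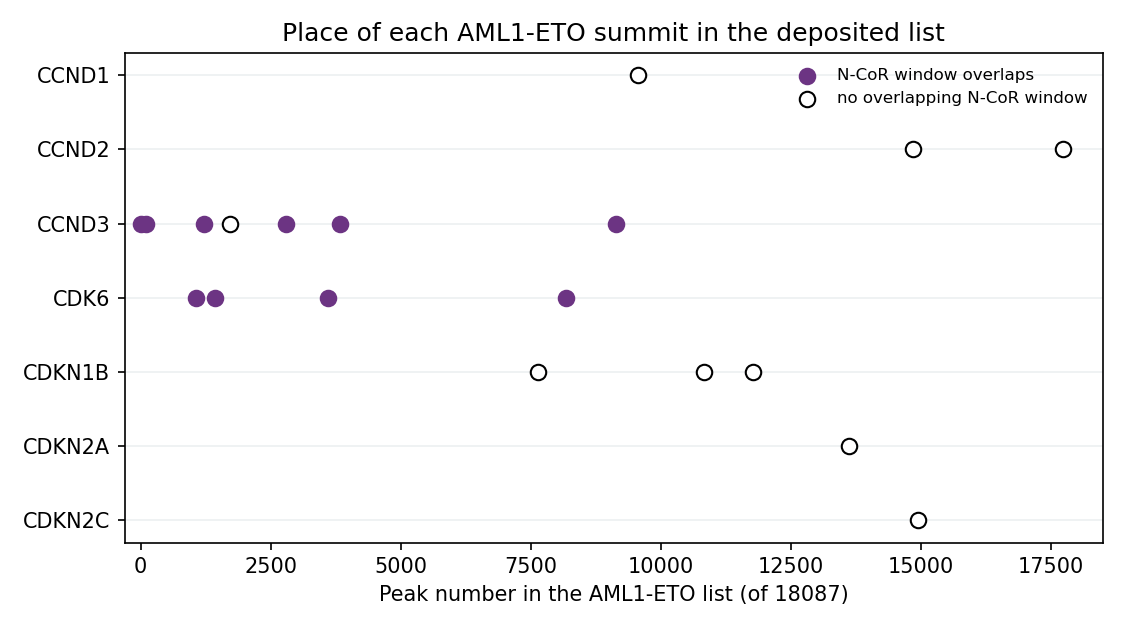
Peak number of each AML1-ETO summit within 5 kb of the members (horizontal axis, of 18087), by gene, filled where an N-CoR window overlaps it. The filled points belong to CCND3 and CDK6 and lie at 9146 or below. CCND3 also has an open point, at 1719, and the open points of the other members lie at 7640 or above.

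TGTGGT was found in 6 of 19 AML1-ETO windows, or 31.6% (12.6 to 56.6), against 31.3% of all AML1-ETO windows. Within 25 bp of the summit it was found in 2 of 19, or 10.5% (1.3 to 33.1), against 18.2%. GAGGAA was found in 5 of 19, or 26.3%, against 26.0%, and AGGAAG in 4 of 19, or 21.1% (6.05 to 45.6), against 37.5%. Windows with both TGTGGT and GAGGAA were 3 of 19 (15.8%, interval 3.38 to 39.6), namely CCND3 peak 3831 and CDK6 peaks 1434 and 8173 printed above, where 7.92% of all AML1-ETO windows held both. In the members' N-CoR windows, GAGGAA was found in 7 of 15, or 46.7% with an interval of 21.3 to 73.4, which held the 30.8% of the N-CoR list. A match is a run of letters and not a shown binding site.

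Within 50 kb, summits of AML1-ETO were found at 9 of the 10 genes, where 66.5% of all protein-coding genes had one, and of N-CoR at 4, where 48.7% had one. Many of the added sites lay at starts of other genes. At CCND3 these were USP49 and BYSL, at CDK4 AGAP2, METTL1 and TSFM, at CDK6 FAM133B, at CCND1 LTO1 and at CCND2 TIGAR. CDK4 gained AML1-ETO in this way, at chr12:58134973 with AML1 and N-CoR and at chr12:58136029 with AML1 and p300, both within 1000 bp of an AGAP2 start. CCNA1, CDKN1B, CDKN2A and CDKN2C gained no summit of any list.

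Beyond the 10 genes, 21 other cell cycle genes, from G1 regulators to the mitotic CDK1 and CCNB1, were read by the same rule. AML1-ETO was found at 11 of 21 (52.4%, against 41.4% of all genes) and N-CoR at 7 (33.3%, against 26.7%). AML1 and p300 were each found at 14 (66.7%, against 34.9% and 45.5%), and H3K4me3 at 19 (90.5%, against 68.0%). RB1, the gene of the retinoblastoma protein, held the most, with 5 AML1-ETO, 4 AML1, 7 N-CoR and 4 p300 summits over 296 kb. E2F3, an E2F activator, held 3 AML1-ETO, 2 AML1, 2 N-CoR and 2 p300 summits. CDKN2D, the fourth INK4 inhibitor, held 1 summit of each of these proteins. At the low end, CDKN2B (p15) held no summit of any list, CDK1, the kinase of mitosis, held H3K4me3 alone, and CDKN1C (p57) held 1 AML1-ETO summit without H3K4me3.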

How the data were processed

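The 5 peak lists were those of AML1-ETO, AML1, p300, N-CoR and H3K4me3. Per the labels and the study's methods, the authors aligned reads to GRCh37 (hg19) with Bowtie, pooled 2 replicates per antibody and called peaks with MACS2 at p below 1e-20. The submitters' processing notes name Bowtie 0.12.8, CASAVA 1.6 and MACS2 2.0.10.20131216. The deposited lists hold other values than counts or scores: a chromosome, a start, an end and a numbered name, with no height, fold enrichment or p-value. Peak names in the N-CoR, p300 and H3K4me3 lists begin with the prefix of another list (N-CoR that of AML1-ETO, the others that of AML1), but their positions differ: N-CoR and AML1-ETO shared 92 exact positions of 10004.

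Every interval was 100 bp wide, and the summit was the start plus 50 bp, printed counted from 1. Summits were assigned to gene bodies of GENCODE release 44, lifted to GRCh37, with flanks of 5 kb and 50 kb. Windows overlapped where they shared at least 1 bp. Sequences came from the GRCh37 genome. Peaks on the mitochondrial chromosome (6 for AML1, 1 for N-CoR, 1 for H3K4me3) were left out. Background values used 20162 protein-coding genes. Shares carry exact Clopper-Pearson 95% intervals. Alternatives changed the flank, the window, the gene extent, the merging of summits within 500 bp, the part of the list used and the motif window. All 10 genes were named, with every site within 5 kb of them, the genes nearest those sites, and the most and least occupied of the 21 other cell cycle genes. Sequences were printed for AML1-ETO windows with the lowest peak numbers or a Runx consensus. The genes and lists were chosen with earlier results of these data known. One of the markers chosen for other cell types is not reported here and is not in the count. Counting was tested on simulated data. Work was done in Python 3.11.15. Sequences were read with samtools 1.23.1 and pysam 0.24.0, intervals came from SciPy 1.17.1, and plots from matplotlib 3.10.9 with numpy 2.4.6.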

Additional observations from a re-analysis of the deposited data

How the results depend on the processing

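Of 112 values recomputed under the alternatives for 15 results, 8 moved: a count by more than 1.5 times, or a share to outside the reported interval. The other 104 did not, although some of the shares, with wide intervals, changed by more than 1.5 times when 1 gene was left out. Using the first 50% of each list, by peak number, left 3 genes with AML1-ETO (7 in the full list) and 11 AML1-ETO summits (19). It also left 8 p300 summits (13) and 9 H3K4me3 summits (25). Fewer peaks were used at this setting, and the drops were unequal: 10 of 12 AML1 summits and 10 of 15 N-CoR summits were kept. The reason for the unequal drops was not tested. The share of all genes at this setting was not computed, so the 3 genes cannot be set beside a background. With the flank at 50 kb, N-CoR was found at 4 genes (2 at 5 kb) and p300 had 21 summits (13 at 5 kb). With the gene body alone, p300 was found at 3 genes (5 with the flank). The share of all genes for the gene body alone was not computed either. Within 25 bp of the summit, TGTGGT was found in 10.5% of the AML1-ETO windows (31.6% within 50 bp), where the whole list fell from 31.3% to 18.2%. Leaving out 1 gene at a time gave shares of AML1-ETO windows overlapping AML1 of 41.7 to 68.8%, N-CoR of 33.3 to 62.5% and p300 of 13.3 to 41.7%, where the reported values were 57.9, 52.6 and 26.3%. The lowest N-CoR share was without CCND3, the lowest p300 share without CDK6 and the highest p300 share without CCND3.

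The limits are those of the lists. They carry no height and no replicate, so no test between genes or antibodies was possible and the strength of a peak is unknown. The peak number moved with overlap in the AML1-ETO list, but its meaning is not stated. The small number of summits leaves wide intervals. A summit near a start shared with a neighbour cannot be assigned to either gene. No paired analysis was possible because each antibody has 1 pooled list.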
